A study of Mus musculus with 5 samples.

Results

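Gna12 and 9 other genes of heterotrimeric G proteins were followed in sorted common lymphoid progenitors (CLPs), marrow cells that give rise to the B, T and natural killer lineages. The 10 members are the alpha subunit genes Gna11, Gna12, Gna13, Gna15, Gnai2, Gnai3, Gnaq and Gnas and the beta subunit genes Gnb1 and Gnb2, found by symbol among the 55487 gene identifiers of the count table. All 10 passed the filter on low counts, as did 14423 genes in all. Gna12 was chosen by its higher RNA level in the mutant libraries of this same comparison, so its values in that comparison are described here without a test. The other members came from the same gene family with that result known.

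RNA was sequenced from 3 libraries of SF1 mice, which carry SclCre and JAK2-V617F, and from 2 libraries of wild-type (WT) mice, all harvested 16 weeks after tamoxifen. The treatment protocol in the labels calls the mutant mice VF and the sample labels call them SF1. JAK2-V617F is the kinase mutant common in myeloproliferative neoplasms, and SclCre is a Cre recombinase under control of the blood stem cell gene Scl. The sort took bone marrow cells that were lineage-negative and positive for CD127 and Flt3. The sources used here do not give the age of the mice, whether WT mice carried SclCre, which of the SMART-Seq versions named in the labels made each library, or whether libraries are single animals or pools. The p-values therefore measure only the spread between these libraries.

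A heterotrimeric G protein is held by a G protein-coupled receptor until a ligand makes its alpha subunit exchange GDP for GTP and part from the beta-gamma pair. Among the classes of alpha subunit, Gs raises cyclic AMP, Gi lowers it, Gq activates phospholipase C beta, and G12/13 acts on the actin cytoskeleton. In blood cells Gi carries chemokine signals such as that of CXCR4, while G12/13 acts on shape, adhesion and confinement in tissue.

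The end of the alpha subunit's coding sequence is shown because the tail it encodes enters the activated receptor and helps to set which receptors a class serves. Each line gives the last 36 coding bases of the gene's transcript marked as principal (where several, the longest, and for Gnas the shortest) in the GENCODE M21 annotation of GRCm38, 5′ to 3′ on the gene's strand, with the last 5 codons before the stop in capitals.
Gna12: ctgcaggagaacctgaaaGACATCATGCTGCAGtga
Gna13: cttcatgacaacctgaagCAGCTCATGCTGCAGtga
Gnaq: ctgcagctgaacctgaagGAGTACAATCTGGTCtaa
Gna11: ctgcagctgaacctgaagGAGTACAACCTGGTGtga
Gna15: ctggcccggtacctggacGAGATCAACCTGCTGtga
Gnai2: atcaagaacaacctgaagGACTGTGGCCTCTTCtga
Gnai3: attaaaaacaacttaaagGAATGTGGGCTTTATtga
Gnas: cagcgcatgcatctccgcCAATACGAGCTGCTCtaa

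The Gna12 tail lies at chr5:140760549-140760584 and the Gna13 tail at chr11:109396451-109396486. Gna13 has the same base as Gna12 at 12 of the 15 bases in capitals, against 5 to 11 for the other alpha members. Over the whole coding sequence Gna12 and Gna13 were identical at 66.7% of 1155 aligned columns, and Gna12 and the other alpha members at 51.3 to 57.3%. Although they are relatives, the transcripts are far enough apart to be counted separately: of 3409 distinct 31-base words in the Gna12 transcripts, 0 occur in another member, and of those of Gna13 also 0. Gnaq and Gna11, which are 80.5% identical, share 16 such words.

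Total counts were 9350767 to 11290082 in the SF1 libraries and 20424296 and 8894288 in WT replicates 1 and 2, so 3 counts, taken as the floor of detection, stood for 0.147 to 0.337 CPM. The sort receptors were present, with Flt3 at 1594 to 1700 CPM in SF1 and 1511 and 1514 CPM in WT. Jak2 was at 63.3 to 68.1 CPM in SF1 and 58.4 and 35.4 CPM in WT, and gene counts carry no information on the mutant allele. Differences were fitted with edgeR's quasi-likelihood test, and adjusted p-values are Benjamini-Hochberg values over all 14423 genes, with 0.05 as the threshold. Fold changes are SF1 over WT, and levels are counts scaled to library size by the TMM method (CPM), compared between genes only after division by length.

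Gna12 was higher in each SF1 library than in either WT library, and its close relative Gna13 was not. Gna12 (ENSMUSG00000000149, chromosome 5, 140758408 to 140830431, minus strand) encodes the alpha subunit G alpha 12. Its level was 92.9, 124 and 113 CPM in SF1 replicates 1, 2 and 3, and 18.4 and 18.6 CPM in WT replicates 1 and 2. These came from 873, 1419 and 1225 counts in SF1 and 365 and 163 counts in WT. The groups lay far apart, with the lowest SF1 library at 5.0025 times the level of the highest WT library. The log2 fold change was 2.57 (SE 0.14), or 5.96-fold, and ran from 2.48 to 2.72 over the 12 alternative settings. Of all genes tested, 92 (0.638%, Gna12 itself included) had a log2 fold change at or above this value.

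Gna13 (chromosome 11, 109362831 to 109401369), which encodes G alpha 13, was at 123, 145 and 119.9 CPM in SF1 and 136 and 131 CPM in WT. The WT libraries lay within the SF1 range, and the log2 fold change was -0.04 (SE 0.10, edgeR adjusted p = 0.831).

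**Figure D1:**
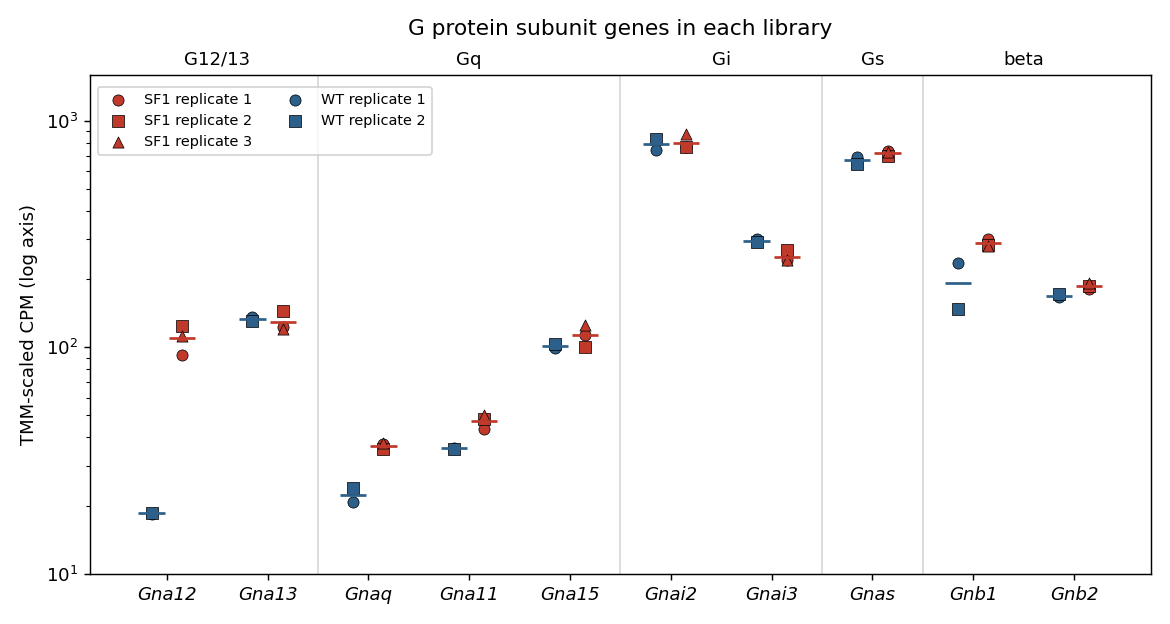
TMM-scaled CPM on a log axis for the 10 subunit genes by class, where each point is a library (colour for the group, shape for the replicate) and short lines are group means. Of the 10 genes Gna12 has the widest gap on this axis between the groups, from 18.6 CPM in the highest WT library to 92.9 CPM in the lowest SF1 library.

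Because only levels divided by length compare genes, CPM was divided by the kilobases of annotated exon. On that scale Gna12 was at 27.2, 36.4 and 32.96 CPM per kilobase in SF1 and 5.38 and 5.43 in WT. Gna13 was at 19.2, 22.6 and 18.7 in SF1 and 21.1 and 20.3 in WT. Gna13 was thus the more abundant transcript of the class in both WT libraries, and Gna12 in all 3 SF1 libraries. Gna12 made up 61.3 ± 2.64% (SD, n = 3) of G12/13 class transcripts in SF1 and 20.7 ± 0.577% (n = 2) in WT. The summed class was at 52.4 ± 6.33 CPM per kilobase in SF1 and 26.1 ± 0.531 in WT, a sum chosen with the result known and given without a test.

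Per kilobase of annotated exon, the rest of the alpha pool had similar sums in both groups. Between the group means Gna12 differed by 26.8 CPM per kilobase and the sum of the other 7 by 3.97, with SF1 higher in both. The 8 alpha members summed to 459, 471 and 499 CPM per kilobase in SF1 and 437 and 455 in WT. With Gna12 left out the sums were 431, 435 and 466 in SF1 and 431 and 449 in WT, so that the group means of 444 ± 19.3 (n = 3) and 440.3 ± 12.8 (n = 2) lay within 1 SD of each other. By class, Gq summed to 69.5, 64.6 and 77.0 in SF1 and 58.9 and 60.9 in WT, and Gi to 277, 285 and 306 in SF1 and 289 and 310.5 in WT. The Gq sums of SF1 were all above WT and the Gi sums overlapped. The share of Gna12 in the 8-gene pool was 5.93, 7.72 and 6.60% in SF1 and 1.23 and 1.19% in WT. The Gi class held 60.3, 60.4 and 61.2% in SF1 and 66.2 and 68.3% in WT, and it stayed the main class in every library. The Gna12 share depends on the length used: with the longest transcript as the length, the difference in share was 3.51 percentage points instead of 5.54. So does the difference of the other 7, at 16.1 CPM per kilobase with the longest transcript and 54.3 CPM with no length. Gna12 itself differed by 26.8 and 91.4 on those scales, with SF1 higher throughout.

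**Figure D2:**
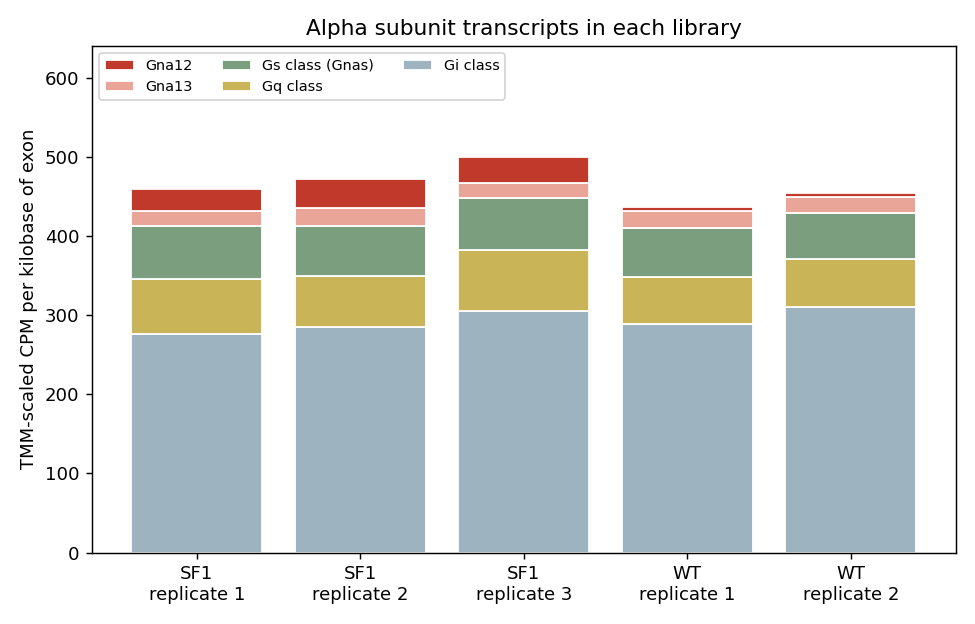
Stacked bars of TMM-scaled CPM per kilobase of exon for the alpha subunit members in each library, by class, with the G12/13 class split into Gna13 and Gna12. The Gna12 segment is 27.2 to 36.4 in SF1 and 5.38 to 5.43 in WT, while the summed height of the other segments is 431 to 466 in SF1 and 431 to 449 in WT.

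In the fit over all genes, 3 of the 9 other members were higher in SF1, 0 were lower and 6 did not pass, where 6.77% of all genes tested were called higher and 9.74% lower, 16.5% in all. All 3 of those higher rose by less than 2-fold, a size that 2.78% of all genes passed as higher. At an unadjusted p under 0.05, 1 of the 9 was lower (Gnai3). DESeq2 called that 1 lower and limma voom called 0. Among the 9, groups were apart in 6, with every SF1 library above WT in 5 and below in 1. Over all genes tested, 49.0% did not overlap, 24.8% with SF1 above and 24.2% below. The median log2 fold change of the 9 was 0.14, against 0.02 over all genes tested. The members share the contrast from which Gna12 was picked, so these counts are a description.

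The Gq class moved in part. Gnaq (chromosome 19, 16132831 to 16387463), which encodes the alpha subunit that activates phospholipase C beta, was at 37.2, 35.6 and 37.7 CPM in SF1 and 20.8 and 23.8 CPM in WT. Every SF1 library was above both WT libraries. The log2 fold change of Gnaq was 0.73 (SE 0.12, edgeR adjusted p = 0.00509), a call kept under each of the 12 alternatives. Gna11 (chromosome 10, 81528724 to 81545190), a near copy of Gnaq in function, was at 43.6, 48.1 and 50.5 CPM in SF1 and 35.98 and 35.5 CPM in WT. It rose by 0.41 (SE 0.11, edgeR adjusted p = 0.0394), but it missed the threshold in 4 of the 5 leave-one-out fits, with an adjusted p of 0.101 and 0.121 when SF1 replicate 2 or 3 was dropped and of 0.162 and 0.124 when WT replicate 1 or 2 was dropped.

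Gna15 (chromosome 10, 81502306 to 81524225), the blood cell member of the Gq class that couples to many receptors, sits beside Gna11 on the chromosome. It was at 113, 101 and 125 CPM in SF1 and 99.8 and 103 CPM in WT. The groups overlapped, and the log2 fold change of 0.15 did not pass (SE 0.10, edgeR adjusted p = 0.352). Per kilobase Gna15 was the main transcript of its class, at 47.1 to 58.6 in SF1 and 46.8 and 48.4 in WT, and Gnaq the least at 5.75 to 6.09 and 3.37 to 3.85.

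Neither Gi gene passed. Gnai2 (chromosome 9, 107614125 to 107635367), the main Gi subunit of blood cells, was at 764, 766 and 873 CPM in SF1 and 745 and 835 CPM in WT. Its groups overlapped, with SF1 replicate 3 above both WT libraries and WT replicate 1 below all SF1 libraries (log2 fold change 0.02, SE 0.09, edgeR adjusted p = 0.903). Gnai3 (chromosome 3, 108107280 to 108146146) was at 243, 268 and 243 CPM in SF1 and 300.4 and 292 CPM in WT. All SF1 libraries were below both WT libraries, but the log2 fold change of -0.24 did not pass (SE 0.08, edgeR adjusted p = 0.0756). It passed as lower by DESeq2 (-0.24, adjusted p = 0.0481), in an unfiltered fit (-0.25, adjusted p = 0.0491) and after GC and length trends were removed (-0.43, adjusted p = 0.00635).

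Gnas (chromosome 2, 174284320 to 174346744), whose main product is Gs alpha and which also yields imprinted transcripts, was at 740.3, 703 and 729 CPM in SF1 and 694 and 646 CPM in WT. The SF1 libraries were all above WT by a narrow margin, and the log2 fold change of 0.11 did not pass (SE 0.07, edgeR adjusted p = 0.316). It was 0.37 after GC and length trends were removed (adjusted p = 0.00724). The predicted gene Gm20721 lies on the opposite strand, and 99% of its exon bases are also exon bases of Gnas. Gm20721 was listed at 93.8 to 99.0% of the Gnas level in each library, and without strand information the reads of the pair cannot be told apart.

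**Figure D3:**
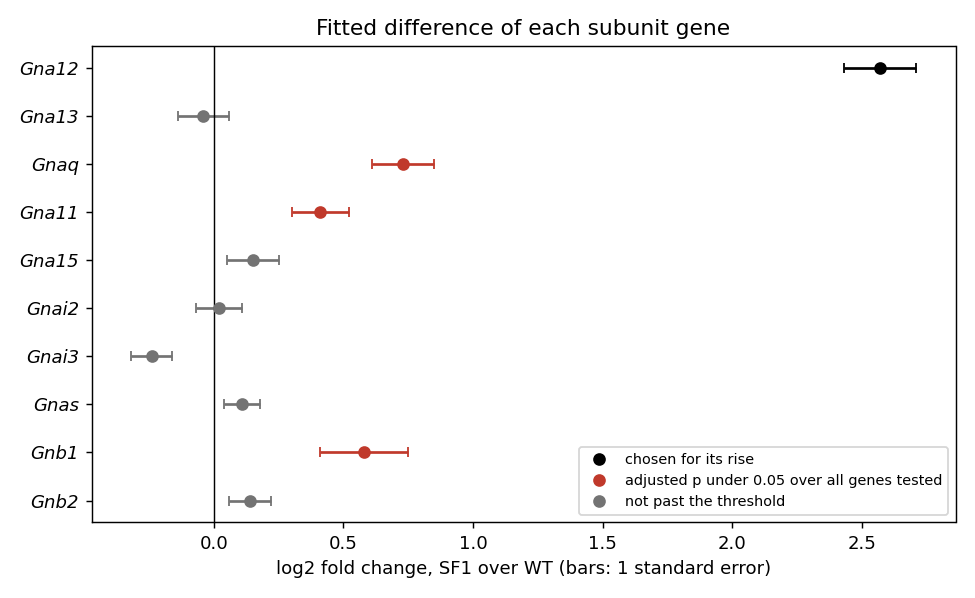
Fitted log2 fold change of each member, SF1 over WT, with bars of 1 standard error. Gna12 stands at 2.57, the 3 other members past the threshold (Gnaq, Gnb1 and Gna11) at 0.41 to 0.73, and the rest between -0.24 and 0.15.

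Of the beta subunits, which form the beta-gamma pair that all alpha classes share, Gnb1 was higher in SF1. Gnb1 (chromosome 4, 155491361 to 155559269) was at 302, 284 and 279 CPM in SF1 and 236 and 147 CPM in WT. The SF1 libraries were alike and above both WT libraries, which themselves lay far apart. The log2 fold change of Gnb1 was 0.58 (SE 0.17, edgeR adjusted p = 0.0435). The size depended on the WT library: it was 0.28 without WT replicate 2 (adjusted p = 0.108) and 0.97 without WT replicate 1, and dropping SF1 replicate 1, 2 or 3 ended the call as well (adjusted p = 0.0883, 0.107 and 0.0958).

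Gnb2 (chromosome 5, 137528127 to 137533510) was at 181, 186 and 192 CPM in SF1 and 167 and 172 CPM in WT. Its groups did not overlap, yet the log2 fold change of 0.14 did not pass (SE 0.08, edgeR adjusted p = 0.251). It was 0.32 after GC and length trends were removed (adjusted p = 0.0313).

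Set in order of CPM per kilobase, 3 of the 10 members (Gnai2, Gnai3 and Gnaq) held the same place in both groups. Gnai2 came first in both groups, at 212 ± 16.5 in SF1 (SD, n = 3) and 209 ± 17.0 in WT (n = 2), followed by Gnai3 at 77.1 ± 4.43 and 90.7 ± 1.91. Gnaq came last in both, at 5.95 ± 0.181 and 3.61 ± 0.340. Gna12 was in place 9 in WT, between Gna11 and Gnaq, and in place 7 in SF1, between Gna15 and Gna13. Gnb1 was in place 6 in WT and 3 in SF1. Among neighbours in the order, the libraries of Gnb1 and Gnas and of Gnb2 and Gna15 overlapped in SF1, and those of Gna15 and Gnb1 in WT. The libraries of all other neighbours were apart. Several places rest on the length used: with the longest transcript as the length, Gnas (178 to 188), Gnb2 (97.1 to 103) and Gnb1 (88.9 to 96.0) were all above Gnai3 (74.4 to 82.2) in SF1.

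Outside the members, few other subunits had much RNA. Of 8 further alpha subunit genes 3 could be tested and 0 were called by edgeR, at an unadjusted p under 0.05 also 0, and 0 by DESeq2 or limma voom. The most abundant was Gnal, a Gs class gene best known from olfactory neurons, at 28.5, 29.95 and 28.7 CPM in SF1 and 27.0 and 23.0 CPM in WT. Of 2 further beta genes tested, 0 were called by edgeR, DESeq2 or limma voom, with 1 at an unadjusted p under 0.05. The more abundant, Gnb4, was at 15.8, 17.4 and 20.04 CPM in SF1 and 16.2 and 13.9 CPM in WT. Of 7 gamma subunit genes tested, 28.6% were called, against 16.5% of all genes tested. Gng12 was higher (103, 114 and 117 CPM in SF1, 92.1 and 85.4 CPM in WT, log2 fold change 0.33, edgeR adjusted p = 0.0432). Its call was lost after GC and length trends were removed (log2 fold change 0.22, edgeR adjusted p = 0.12). The sparse Gng13 was lower (2.34, 1.66 and 1.38 CPM in SF1, 4.03 and 4.21 CPM in WT, log2 fold change -1.20, edgeR adjusted p = 0.0392). When SF1 replicate 2 or 3 or either WT library was dropped, neither gamma call held (adjusted p between 0.104 and 0.182).

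Downstream of G12/13, of 10 effector genes tested, 1 was higher, 3 were lower and 6 did not pass, with a median log2 fold change of -0.16. The share called was 40.0%, against 16.5% of all genes tested. Rock2, which encodes a kinase of the actin cytoskeleton, was at 175, 174 and 172 CPM in SF1 and 115 and 93.7 CPM in WT, and rose by 0.73 (SE 0.10, edgeR adjusted p = 0.00209). Mrtfa, the actin-sensing coactivator of SRF, was at 47.4, 45.2 and 55.1 CPM in SF1 and 78.9 and 79.3 CPM in WT, and fell by 0.68 on the log2 scale (SE 0.11, edgeR adjusted p = 0.00465). Srf itself, the serum response factor gene, was at 16.8, 17.0 and 17.1 CPM in SF1 and 29.1 and 25.5 CPM in WT, and fell by 0.69 (edgeR adjusted p = 0.00941; 0.095 without WT replicate 1).

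Arhgef1, an exchange factor gene of blood cells whose product binds G12/13 subunits, was named after its values were seen. It was at 506, 443 and 540 CPM in SF1 and 715 and 599.7 CPM in WT (log2 fold change -0.41, edgeR adjusted p = 0.0311). It missed the threshold when SF1 replicate 1 or 2 was dropped (adjusted p = 0.0597 and 0.101), when WT replicate 1 was dropped (0.22) and after GC and length trends were removed (-0.12, adjusted p = 0.337).

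The effectors of the other classes that passed were lower in SF1. Of 7 Gq effectors tested, 2 were lower: Itpr3, an IP3 receptor gene (26.1, 18.4 and 28.1 CPM in SF1, 43.7 and 43.8 CPM in WT, log2 fold change -0.86, edgeR adjusted p = 0.0104), and Plcb3, a phospholipase C beta gene (-0.67, edgeR adjusted p = 0.0396). Itpr3 missed the threshold without WT replicate 1 (adjusted p = 0.0527), and Plcb3 in each leave-one-out fit except that lacking SF1 replicate 3 (0.0605 to 0.209). Plcb3 also missed it after GC and length trends were removed (log2 fold change -0.46, edgeR adjusted p = 0.0929). The most abundant of the list, the IP3 receptor gene Itpr1, was at 172, 169 and 166 CPM in SF1 and 149 and 138 CPM in WT (edgeR adjusted p = 0.0791). It passed as higher after GC and length trends were removed (log2 fold change 0.3, edgeR adjusted p = 0.0283).

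Of 11 genes of the cyclic AMP branch, 1 was lower, the adenylyl cyclase gene Adcy3, at 22.7, 20.5 and 21.8 CPM in SF1 and 43.5 and 34.8 CPM in WT (-0.86, SE 0.13, edgeR adjusted p = 0.00379). Prkar1a, a regulatory subunit gene of protein kinase A and the most abundant of the branch, was at 752, 765 and 771 CPM in SF1 and 725 and 728 CPM in WT (edgeR adjusted p = 0.508). Of 4 beta-gamma effectors, 2 were lower in the main fit, and all 4 by DESeq2, by limma voom and in an unfiltered fit. Prex1, a Rac exchange factor gene, was at 161, 144 and 163 CPM in SF1 and 288 and 225 CPM in WT (-0.72, edgeR adjusted p = 0.0038). Pik3r6, an adaptor gene of PI3K gamma, fell by 0.99 on the log2 scale (edgeR adjusted p = 0.0106; 0.0684 without WT replicate 1). Pik3cg, the catalytic subunit gene of PI3K gamma, was at 223, 215 and 236 CPM in SF1 and 293 and 255 CPM in WT (edgeR adjusted p = 0.0567). It passed as lower by DESeq2 (adjusted p = 0.0306), by limma voom (0.0481) and in the unfiltered edgeR fit (0.012).

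Regulators of the subunits went both ways. Of 10 RGS genes tested, which speed GTP hydrolysis by alpha subunits, 2 were higher and 2 lower. That is 40.0% called, against 16.5% of all genes tested. Rgs10 was at 31.6, 25.5 and 30.97 CPM in SF1 and 17.2 and 18.4 CPM in WT (log2 fold change 0.72, edgeR adjusted p = 0.0115; 0.0849 without WT replicate 1). Rgs12 was at 57.5, 55.8 and 51.4 CPM in SF1 and 89.8 and 79.5 CPM in WT (-0.63, edgeR adjusted p = 0.00486). Rgs8 had a log2 fold change of -1.35 (edgeR adjusted p = 0.0137), which missed the threshold when SF1 replicate 2 (0.062) or WT replicate 1 (0.135) was dropped.

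Of 7 genes for chaperones, exchange factors and other binding partners of the subunits, 42.9% were called, against 16.5% of all genes tested. Ccdc88a was higher (0.45, edgeR adjusted p = 0.035) and Gpsm1 and Gpsm2 lower (-0.33 and -0.42, edgeR adjusted p = 0.047 and 0.0473). Each of these 3 calls was lost without WT replicate 1 (adjusted p = 0.215, 0.289 and 0.222) and in at least 3 of the other 4 leave-one-out fits (adjusted p between 0.055 and 0.128). Ccdc88a and Gpsm1 also did not pass after GC and length trends were removed (0.38 and -0.07, edgeR adjusted p = 0.0862 and 0.583). Of 7 receptor kinase and arrestin genes 0 were called by edgeR, DESeq2 or limma voom, with 3 at an unadjusted p under 0.05. Grk2, the most abundant, was at 227 to 242 CPM in SF1 and 331 and 245 CPM in WT (edgeR adjusted p = 0.116, and 0.0101 as lower without WT replicate 2).

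At the receptor level, 10 of 26 receptor genes tested were higher in SF1 and 16 did not pass, with a median log2 fold change of 0.49, where 6.77% of all genes tested were called higher. Summed neutrophil and monocyte markers were also higher in SF1 (2320, 2909 and 5935 CPM) than in WT (1080 and 1365 CPM), and their part in the receptor counts was not tested. All called receptors other than Gpr18 had, like the marker sum, their lowest SF1 level in replicate 1 and their highest in replicate 3. Single markers did not all share that order. Elane was at 93.2, 57.8 and 172 CPM and Csf1r at 124, 158 and 141 CPM in SF1 replicates 1, 2 and 3. Whether the orders are linked was not tested. P2ry14, the receptor for UDP-glucose on blood progenitors, was at 104, 108 and 116 CPM in SF1 and 68.6 and 82.6 CPM in WT (log2 fold change 0.54, edgeR adjusted p = 0.0102). C5ar1, the complement C5a receptor of myeloid cells, had 32, 46 and 141 counts in SF1 and 0 and 4 counts in WT (edgeR adjusted p = 0.00941). Gpr183, an oxysterol receptor that guides immune cells, was at 2.45, 2.98 and 5.61 CPM in SF1 and 0.403 and 0.797 CPM in WT (2.73, edgeR adjusted p = 0.0109). All 3 calls were lost without WT replicate 1 (adjusted p = 0.0861, 0.0677 and 0.107), and the number of receptors called higher ran from 2 to 15 over the 12 alternatives.

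In all, 94 pathway genes outside the members were tested, with 15 higher, 13 lower and 66 not passing, a share called of 29.8% against the 16.5% of all genes. Their median log2 fold change was 0.06. The numbers were 5 higher and 4 lower without WT replicate 1, and 9 and 7 when SF1 replicate 2 was dropped. Dropping SF1 replicate 3 gave 6 and 10, and dropping WT replicate 2 gave 8 and 12.

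**Figure D4:**
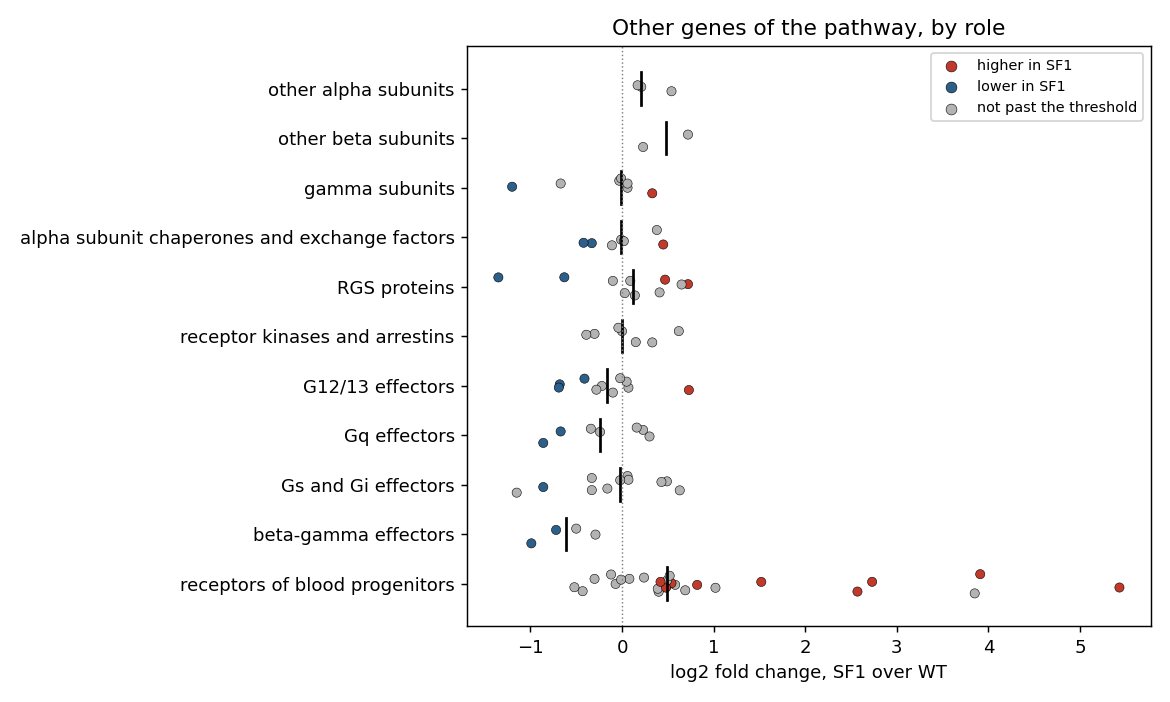
Log2 fold change, SF1 over WT, of each tested pathway gene outside the members, by role, with a black line at each list's median and points in red (passed as higher), blue (passed as lower) or grey (did not pass). The called genes of the Gq, cyclic AMP and beta-gamma effector lists lie to the left of 0, and those of the receptor list to the right.

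On chromosome 5, 9 protein-coding genes near Gna12, up to the fifth on each side, were set beside it, a choice made after its values were seen. Of these 9, 1 was higher, 3 were lower, 4 did not pass and 1 (Radil) had no counts. Over all genes tested, 6.77% were called higher and 9.74% lower. The higher gene, Amz1, which encodes a metalloprotease of the archaemetzincin family, is on the opposite strand and runs into the 3′ end of Gna12, with 456 shared exon bases (13.3% of the Gna12 exons). Amz1 was at 14.1, 22.9 and 22.2 CPM in SF1 and 6.99 and 6.15 CPM in WT (log2 fold change 1.58, SE 0.24, edgeR adjusted p = 0.00359). It stood at 15.2 to 19.8% of the Gna12 level in SF1 and at 38.1 and 33.1% in WT. Whether its reads came from Gna12 transcripts was not tested.

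The 3 lower genes adjoin on the same side beyond Amz1. Brat1, a DNA damage response gene, was at 40.7, 30.04 and 31.3 CPM in SF1 and 84.0 and 84.5 CPM in WT (log2 fold change -1.31, SE 0.14, edgeR adjusted p = 0.000717). Iqce fell by 0.67 on the log2 scale (edgeR adjusted p = 0.00606; 0.0568 without WT replicate 1). Ttyh3 had a log2 fold change of -0.48 (edgeR adjusted p = 0.0243), and missed the threshold when SF1 replicate 2 or 3 was dropped (0.0777 and 0.0812), when WT replicate 1 was dropped (0.199) and after GC and length trends were removed (-0.16, adjusted p = 0.379).

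**Figure D5:**
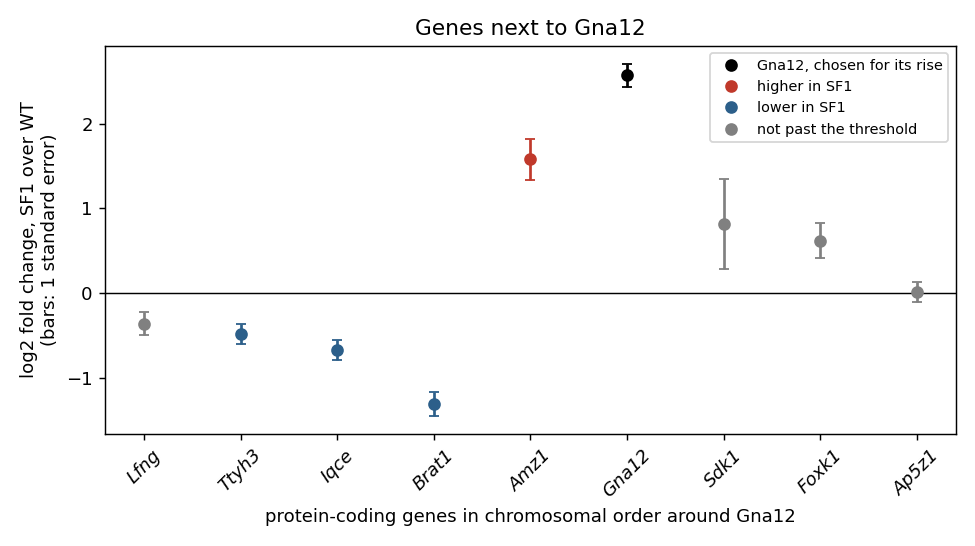
Log2 fold change with bars of 1 standard error for Gna12 and the 8 tested genes of the 9 near it, in chromosomal order, not to distance. Gna12 at 2.57 and Amz1 at 1.58 are above 0, and the 4 genes to the left of Amz1 lie between -1.31 and -0.36.

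Over the 5 libraries, the protein-coding genes with a mean of at least 20 CPM whose log2(CPM + 1) followed Gna12 most closely were Zup1, Psmc3ip, Prss57, Camta1 and Smad4, with Pearson's r of 0.9994 to 0.9986. This is a description over 5 libraries in 2 groups, and 62 of 8055 genes compared had an r above 0.99. Only Smad4, which encodes the shared mediator of TGF-beta signals, changed by a like amount among these 5. It was at 137, 197 and 188 CPM in SF1 and 27.2 and 24.6 CPM in WT, 6.69-fold higher, while the fold of the others was 1.14 to 1.68.

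In bulk RNA of a sorted population, fewer cells of a type and less RNA per cell cannot be told apart, and markers of other cells moved with the groups. Over all genes tested, 6.77% were called higher and 9.74% lower. Of 12 neutrophil and monocyte markers 11 were higher in SF1, and their summed level was 2320, 2909 and 5935 CPM in SF1 and 1080 and 1365 CPM in WT. SF1 replicate 3 was thus far above the other SF1 libraries in these markers. In SF1 replicates 1, 2 and 3 Gna12 was at 92.9, 124 and 113 CPM. Csf1r of this list (124, 158 and 141 CPM) and the plasmacytoid marker Siglech (209, 312 and 297 CPM) had the same order. The other called markers of both lists were highest in SF1 replicate 3. Of 6 plasmacytoid dendritic markers tested 5 were higher, with sums of 1809, 2032 and 2297 CPM in SF1 and 1048 and 1190.2 CPM in WT. Of 7 B-lineage markers tested 6 were lower, at 609 to 893 CPM against 1155 and 1322 CPM. Erythroid markers summed to 75.8 to 100.2 CPM in SF1 and 179 and 203 CPM in WT, with Hba-a2 at 0 in SF1. Macrophage markers summed to 5.52 to 10.02 CPM against 21.6 and 28.5 CPM, with Cd5l at 0 in SF1. Sums were 189.9 to 208 CPM against 174 and 179 CPM for T and NK markers. Cd3e had 0 counts in SF1 and 1 in each WT library, all under the floor of 3 counts. Of 5 T and NK markers tested, 1 was called, Klrd1. It was higher, at 22.4, 28.4 and 32.4 CPM in SF1 and 9.66 and 8.43 CPM in WT (edgeR adjusted p = 0.00126). For megakaryocyte and platelet markers the sums were 10.2 to 23.3 CPM against 9.91 and 11.7 CPM, with Gp1bb at 0 in all libraries. Of 5 tested, 1 was called, Pf4. It was higher, at 1.70, 1.93 and 6.80 CPM in SF1 and 0.604 and 0.342 CPM in WT (edgeR adjusted p = 0.0342). The part of these cells in the levels of Gna12, the other subunits and the pathway genes was not tested.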

How the data were processed

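The authors deposited raw counts per gene for 5 libraries, with no normalization. The build was GRCm38, and the tools named are featureCounts 2.0.1, HISAT2 2.2.1 and FastQC, per the submitters' processing notes. The sources used here do not give the annotation release, the strand setting or how reads in several genes were treated. Per the labels' protocols, SMART-Seq amplification and Nextera XT gave the libraries, which carry no molecular identifiers and do not mark strand. Of 55487 identifiers, 55227 matched GENCODE M21, and the other 260 hold 0.0123% of counts.

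Counts were filtered (filterByExpr, minimum count 10), scaled by TMM and fitted with edgeR 4.0.16 in R 4.3.3 (quasi-likelihood F test, no covariate, Benjamini-Hochberg). The SE is derived from the F statistic. Alternatives were DESeq2 1.42.0, limma voom 3.58.1 with sample weights, no filter, a stricter filter (minimum count 30), thinning to the smallest total, GC and length trends removed, a replicate block and leaving out each library. Fits were tested on simulated data.

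Members and lists were chosen with earlier results of these data known. Named are all members, in each list the 3 called genes of smallest p, joined by the most abundant gene where fewer passed, the 5 genes most like Gna12, and Jak2, Il7r and Flt3. Il7r was at 421 to 465 CPM in SF1 and 331 and 371 CPM in WT (edgeR adjusted p = 0.0318). Among the genes near Gna12, 1 is not reported here.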

Additional observations from a re-analysis of the deposited data

How the results depend on the processing

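Of 120 values of single members under the 12 alternatives, 101 kept their direction and their side of the threshold and 0 reversed past it. In 9 a call was lost (5 of Gna11, 4 of Gnb1), in 5 a call was gained (3 of Gnai3, 1 each of Gnas and Gnb2), and in 5 the sign of an uncalled Gna13 or Gnai2 value changed. Members called lower were 1 by DESeq2, 1 with no filter on low counts and 1 after GC and length trends were removed, against 0 in the main result. Leaving out 1 SF1 library gave 2 to 3 members called higher, against 4, and 0 lower. Gna12, chosen for its rise in this contrast, is among those called higher in each of these fits. It also supplies 12 of the 101 values that kept direction and side, so these counts are no test of its rise. Over all genes, leaving out 1 library gave 464 to 905 higher (977 with all libraries) and 522 to 1265 lower (1405). For the pathway lists it gave 5 to 14 higher (15) and 4 to 12 lower (13), and with no filter 23 were higher. The difference of the Gna12 share of the alpha pool was 5.54 percentage points, 5.05 to 5.95 without 1 library, 4.07 with no length and 3.51 with the longest transcript. The cause of these shifts was not tested, other than the length itself.

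The labels give both groups replicate numbers 1 and 2, but nothing says that a number pairs libraries. Deviations of same-numbered libraries from their group means correlated at 0.0356 and 0.0646 across genes. With 2 WT libraries those deviations mirror each other, so both values rest on the same WT difference and cannot settle a pairing. With the replicate block, 574 genes were higher and 945 lower, 9 pathway genes were higher, and Gna11 lost its call (log2 fold change 0.36, adjusted p = 0.151). Because SF1 replicate 3 has no WT library of its number, it adds nothing to the difference in that fit. The precision rests on the spread within 3 SF1 and 2 WT libraries, moderated by edgeR over the genes tested. For Gnb1 the SD was 11.8 CPM in SF1 and 63.0 CPM in WT. The fewest counts of a member were 163, for Gna12 in WT replicate 2. As the libraries carry no molecular identifiers, these counts of reads do not give the counting error, which was not measured.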
